A study of Mus musculus with 2 samples.

Results

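The V segment arrays of 3 mouse antigen receptor loci were described by the CTCF regions listed along them in CD4+CD8+ (double-positive, DP) thymocytes. Regions were made by joining adjoining 25-bp windows of the deposited peak track. A region was kept when its midpoint lay in 1 of 3 intervals of the mm9 genome. These were chromosome 14 from 53000000 to 54620000 for the Tcra/Tcrd V array, chromosome 12 from 114723000 to 117300000 for Igh V, and chromosome 6 from 67500000 to 70600000 for Igk V. The intervals held 327 of the 51660 regions on the autosomes and the X, with 175 in Tcra/Tcrd V, 140 in Igh V and 12 in Igk V.

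Both libraries of the series, 1 of chromatin pulled down with an antibody to CTCF and 1 of unenriched input, came from thymocytes of C57BL/6 mice aged 4 to 8 weeks. All mice were Rag1 -/- and carried a rearranged TCRbeta transgene. The sources used here do not give the number of mice, whether they were pooled, or the promoter of the transgene. Only the CTCF library was analysed, so there was no replicate, no test between conditions was possible, and intervals below cover counting error only. The file gives positions and no heights or read counts, so depth is unknown and the identity of the cells could not be checked against marker genes.

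T and B cells assemble each receptor gene by V(D)J recombination, in which the RAG1 and RAG2 recombinase joins 1 of many V segments to D or J segments near the constant gene. V segments far from the constant gene are called distal and those near it proximal. The DNA-binding protein CTCF, with cohesin, anchors chromatin loops that bring V segments into contact with the recombination centre. Tcra encodes the T cell receptor alpha chain, is rearranged in DP thymocytes and has the delta chain locus, Tcrd, inside it. Igh and Igk encode the heavy and kappa light chains of antibodies and complete their rearrangement in B cells. Without Rag1 none of these endogenous loci is rearranged.

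V segment names and their order came from RefSeq's gene table, whose coordinates are of another build (GRCm38) and were not used. It lists 136 Trav and Trdv segments, all ahead of the alpha constant gene Trac in coordinate order. All 183 Ighv segments lie after the heavy chain constant gene Igha, and all 162 Igkv segments lie ahead of the kappa constant gene Igkc. The distal end is therefore at low coordinates in Tcra/Tcrd and Igk and at high coordinates in Igh. No mm9 annotation was used, so the bounds of the intervals were not checked against V segments, and a region is not assigned to a gene, exon or intron.

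The arrays differed most in how many CTCF regions they held. Tcra/Tcrd V contained 108 regions per Mb (exact 95% Poisson interval 92.6 to 125), Igh V 54.3 (45.7 to 64.1) and Igk V 3.87 (2.00 to 6.76). The autosomes and the X together had 19.6 per Mb. The 3 intervals did not overlap one another, and Tcra/Tcrd V and Igh V lay above the genome value while Igk V lay below it. Regions covered 5.37% of the Tcra/Tcrd V array, 2.64% of Igh V and 0.137% of Igk V, against 0.865% of the genome up to the last listed positions. The number of regions for each V segment of the gene table was 1.29 in Tcra/Tcrd V and 0.765 in Igh V. In Igk V there were 13.5 V segments for each region. These segment counts include pseudogenes in unequal shares, with 17 of 136 in Tcra/Tcrd V, 63 of 183 in Igh V and 60 of 162 in Igk V. Segments that are not pseudogenes numbered 119, 120 and 102 in the same order. By that count Igh V, with 140 regions, also had more regions than segments.

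The surroundings of the arrays were counted over the same length on each side. Next to Tcra/Tcrd V, the distal flank held 38.9 regions per Mb (29.9 to 49.8) and the proximal flank 67.9 (55.8 to 81.8), both below the array. Next to Igh V, the distal flank held 18.6 per Mb (13.7 to 24.7), so the array was 2.92 times as dense as its distal side. The proximal flank, on the side of the constant genes, held 60.1 per Mb (51.1 to 70.4), and this interval overlapped that of the Igh V array. Igk V was sparser than either side. Its distal flank held 17.1 regions per Mb (12.8 to 22.4) and its proximal flank 43.5 (36.5 to 51.5).

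**Figure D1:**
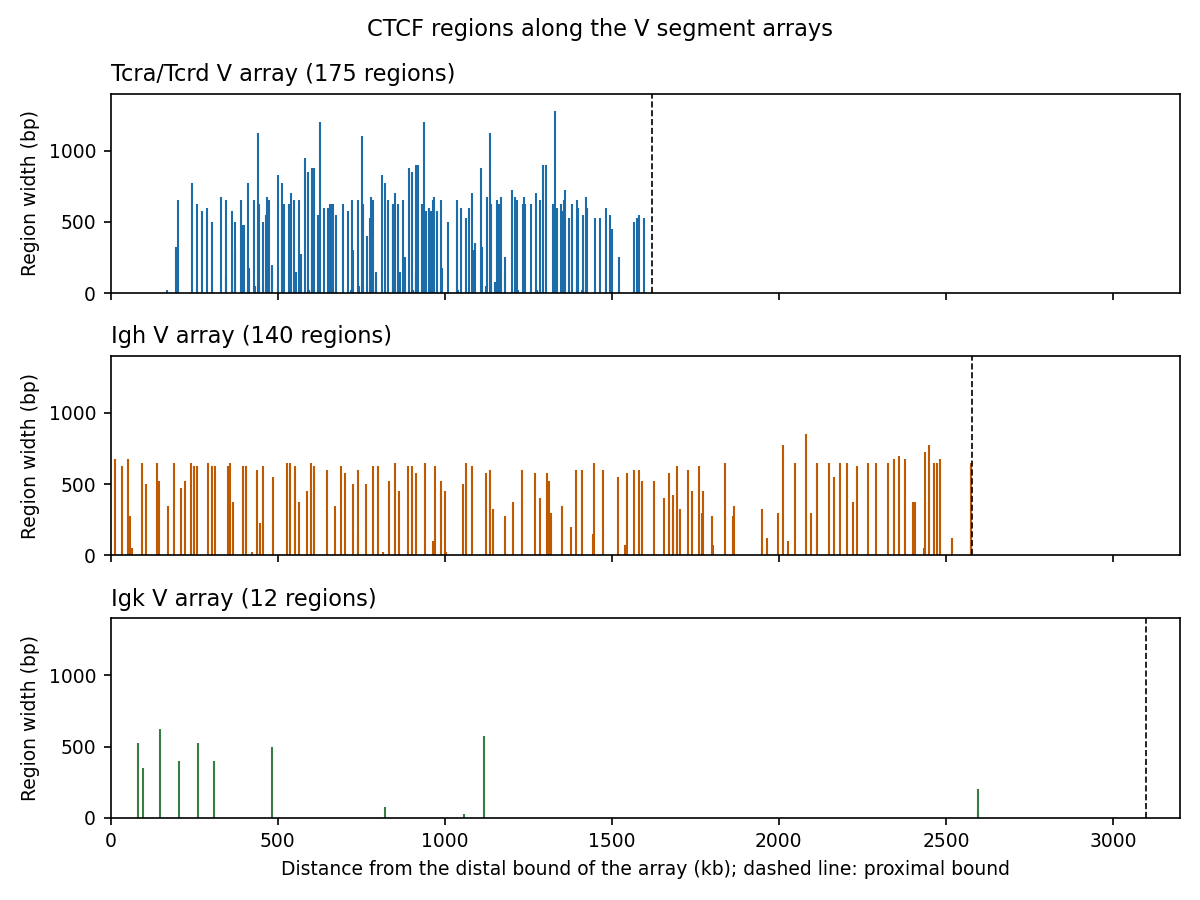
Each line is 1 CTCF region, placed by its distance in kb from the distal bound of its array, with its width in bp as height; the dashed line is the proximal bound. The 175 regions of Tcra/Tcrd V start 167.6 kb from the distal bound, the 140 of Igh V run from end to end, and 10 of the 12 of Igk V lie distal of the midpoint.

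Spacing ranked the 3 arrays as density did, but placed Igh V differently against the genome. The distance between midpoints of neighbouring regions had a median of 6.58 kb in Tcra/Tcrd V (quartiles 2.23 and 11.4 kb), 16.0 kb in Igh V (9.74 and 24.9 kb) and 58.3 kb in Igk V (49.0 and 206 kb). Over all neighbours in the genome it was 13.6 kb (3.80 and 37.1 kb). The median of Igh V was thus longer than that of the genome although its density was higher. Its distances spanned a narrower range, with the upper quartile 2.55 times the lower one, compared with 5.12 times in Tcra/Tcrd V, 4.21 in Igk V and 9.77 in the genome.

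Close neighbours were few in Igh V. A region with another 1000 bp or less away made up 26.8% of all regions. In Igh V there were 14 of 140 (10.0%, exact 95% binomial interval 5.58 to 16.2%), and in Tcra/Tcrd V 56 of 175 (32.0%, 25.2 to 39.5%). The Igh V interval lay below the genome share, and the Tcra/Tcrd V interval included it. Being close is mutual, so these regions come in pairs or groups. The intervals treat each region as a separate count and are too narrow for that reason. In Igk V there were 2 of 12, which were next to each other. Many of the close neighbours were very short regions. In Tcra/Tcrd V, 23 of the 28 regions of at most 75 bp (82.1%) had a neighbour this close, compared with 33 of the 147 wider ones (22.4%). In Igh V this held for 5 of 11 short and 9 of 129 wider regions. In the whole genome the shares were 65.3% and 20.4%.

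At the other extreme, regions with no other within 50 kb made up 6.46% of all regions. Tcra/Tcrd V and Igh V held 0 such regions, and Igk V held 6 of 12 (50%, 21.1 to 78.9%).

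**Figure D2:**
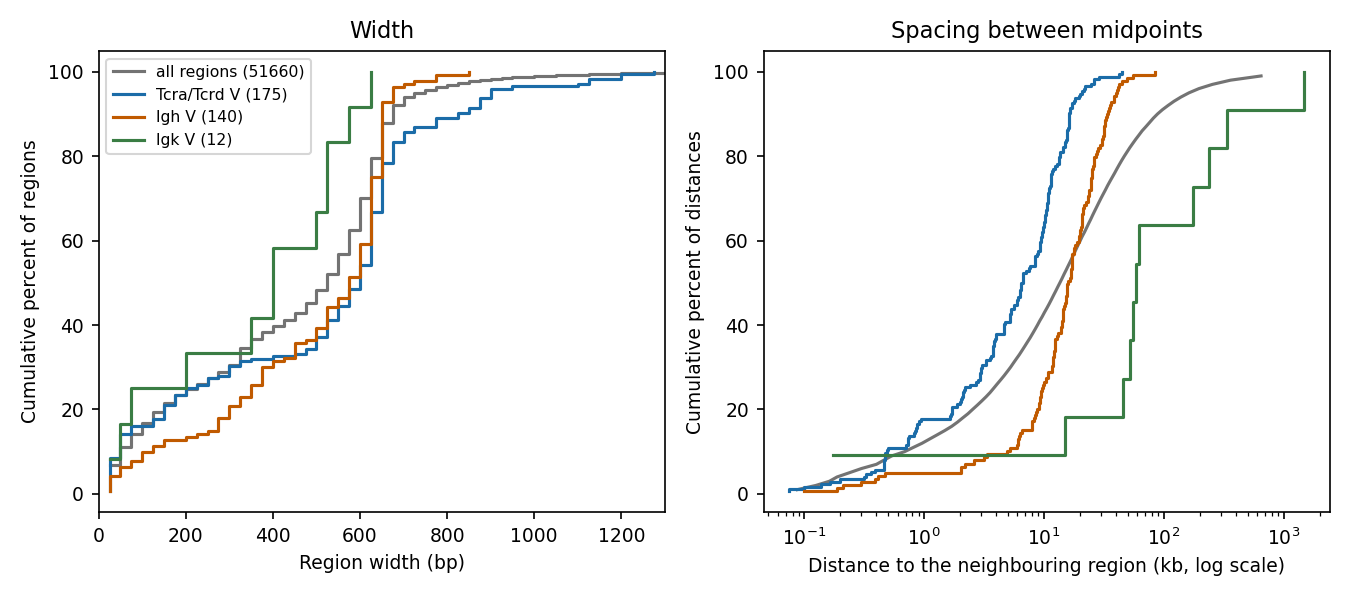
Cumulative percent of regions by width in bp (left) and of neighbour distances by kb on a log axis (right), for the 3 arrays and for all 51660 regions. In the spacing panel Igh V rises most steeply, around its median of 16.0 kb, while Tcra/Tcrd V lies to its left and Igk V to its right.

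Width, the one value of each region, was similar in centre in the larger arrays and differed in its tails. The median was 525 bp in the genome (quartiles 225 and 625 bp) and 600 bp in Tcra/Tcrd V (212.5 and 650 bp). In Igh V it was 50 bp above that of the genome (350 and 631 bp), and in Igk V it was 400 bp (169 and 525 bp). The most frequent width of the library was 625 bp, and 35.3% of all regions were within 50 bp of it, here called full width. Full width was found in 70 of 140 regions in Igh V (50%, 41.4 to 58.6%), 68 of 175 in Tcra/Tcrd V (38.9%, 31.6 to 46.5%) and 2 of 12 in Igk V. The interval of Igh V lay above the genome share, and that of Tcra/Tcrd V included it.

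Short regions of at most 75 bp made up 14.1% of all regions. Igh V had 11 (7.86%, 3.99 to 13.6%), a share whose interval ended just under the genome value. Tcra/Tcrd V had 28 (16.0%, 10.9 to 22.3%) and Igk V had 3 of 12.

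Wide regions were on the side of Tcra/Tcrd V. A width more than 50 bp above the most frequent one was reached by 7.87% of all regions, by 29 in Tcra/Tcrd V (16.6%) and by 5 in Igh V (3.57%). More than 1000 bp was reached by 1.04% of all regions and by 6 in Tcra/Tcrd V (3.43%, 1.27 to 7.31%), and the widest region of Igh V measured 850 bp. Of these 6 regions, 5 lay in the recurring runs described below, so the 6 cannot be taken as separate observations. The same limit holds for the 29, which include partners in the paired stretches described below, such as a region of 825 bp and its partner of 825 bp.

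Along the Igh V array the regions were spread almost evenly over the 25 consecutive bins of 100 kb counted from the distal bound. A shorter piece at the proximal bound, which holds the gap of 54.5 kb described below, was left out. The lowest bin held 4 regions, the median bin 5 and the highest 8. The variance of these counts was 0.262 of their mean. Within the other arrays the variance was 2.35 times the mean in Tcra/Tcrd V and 1.15 times in Igk V. In the genome 47.9% of 100-kb bins were empty, and the variance was 4.13 times the mean. The genome values pool dense and empty stretches, with a median of 1 region per bin. They are therefore not a like measure of evenness within a single dense stretch. Of 1044 consecutive tiles of 2.5 Mb, 34 (3.26%) had no empty bin. At least 4 regions in every bin was met by 50 of 103486 stretches of 2.5 Mb begun at every 25 kb (0.0483%). Of these, 4 overlapped the Igh V array and 46 lay elsewhere. With the bins of Igh V shifted by 50 kb the lowest held 2 regions and the variance was 0.432 of the mean, and with a shift of 25 kb the lowest held 3.

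Distal and proximal sides of Igh V held like numbers, with 71 regions distal of the midpoint and 69 proximal of it (49.3% proximal, 40.7 to 57.9%). In 10 equal parts of 258 kb the number ran from 11 to 16, with 16 in the most distal and 16 in the most proximal part. The median spacing was 15.5 kb distal and 16.7 kb proximal of the midpoint. Some V families are grouped in the gene order, which gives ranks and not distances in kb, so it is not compared with the numbers of regions. In the gene order from the distal end, 77 of 92 members of the Ighv1 family come before the midpoint of the order. All 21 Ighv5 and all 11 Ighv2 segments come after it. Whether single regions lie near segments of one family could not be examined without mm9 positions.

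Width did change along Igh V in places, without a trend over the array. The rank correlation of width with position from distal to proximal was 0.02 over 140 regions of this 1 library. In the 5 distal parts the median width was at most 625 bp and above the genome's 525 bp. It then was 537.5, 487.5 and 287.5 bp in the sixth, seventh and eighth parts, and 650 bp in both the ninth and the tenth. The eighth part held 12 regions, 2 of them of full width and 3 of at most 75 bp. Distal of the midpoint, 41 of 71 regions (57.7%) had full width, and proximal of it 29 of 69 (42.0%). The 5 regions wider than full width lay in the proximal portion, between 78.1% and 95.1% of the way from the distal bound. The widest, of 850 bp, ran from 115219711 to 115220560. Both regions of 775 bp, from 115286061 to 115286835 and from 114849011 to 114849785, lay on either side of it in the order from distal to proximal. The others measured 725 bp (114863286 to 114864010) and 700 bp (114939911 to 114940610).

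The longest stretch of Igh V without a region fell in the same eighth part. It measured 84.85 kb (115349461 to 115434310) and was bordered by narrow regions, of 350 bp on the distal side and 50 bp on the proximal side. The second measured 54.5 kb (114726386 to 114780910) and set off the 2 regions at the proximal end from the rest. These 2, at 114723161 to 114723810 and 114725761 to 114726385, were 650 and 625 bp wide and 1950 bp apart. The third measured 49.3 kb (116247061 to 116296335), between regions of 25 bp on the distal and 500 bp on the proximal side. Gaps over 50 kb made up 5.41% of the array. The most distal region ran from 117287736 to 117288410. The densest 50 kb held 6 regions and occurred at 3 places. That with the lowest coordinates, 114816311 to 114864085, lay next to the proximal end.

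**Figure D3:**
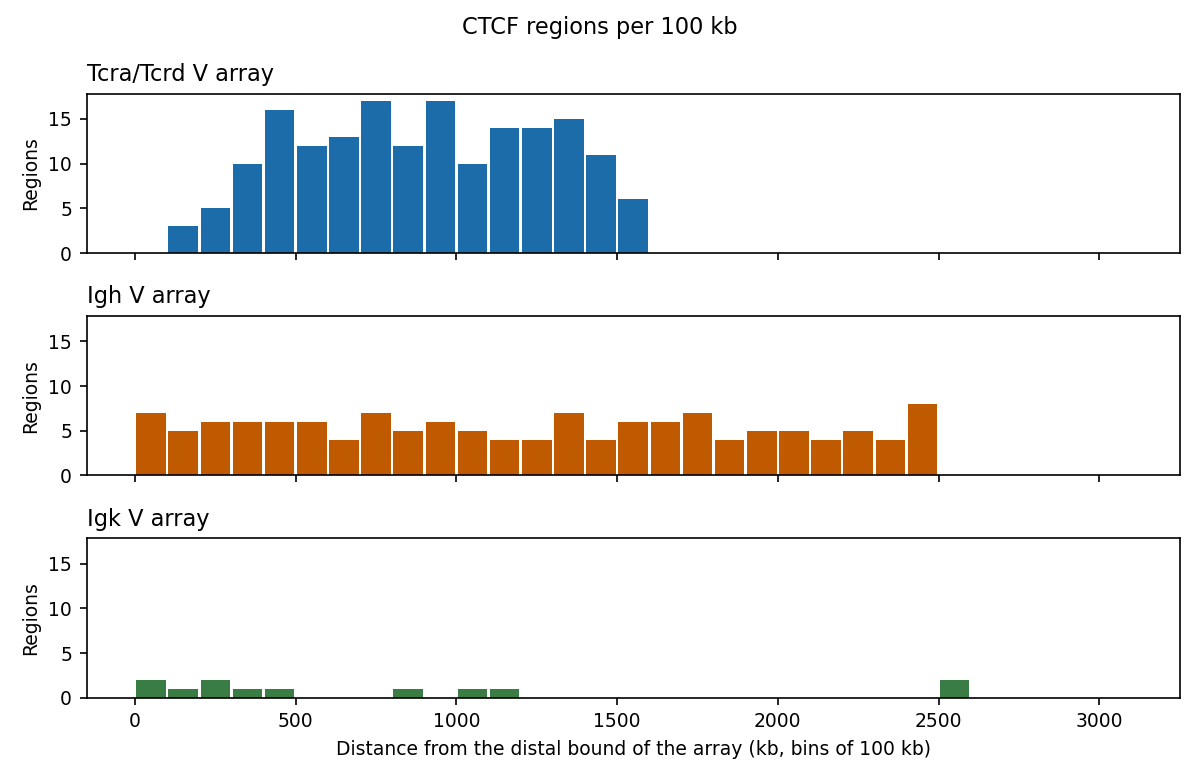
Number of CTCF regions in consecutive bins of 100 kb from the distal bound of each array, without the shorter last piece at the proximal bound. Igh V holds 4 to 8 in each of 25 bins, Tcra/Tcrd V rises from 0 in the first of 16 bins to 17, and 22 of the 31 bins of Igk V are empty.

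In Tcra/Tcrd V the regions filled the middle of the array and thinned at both ends. Of 10 equal parts of 162 kb, the most distal held 0 regions and the next 9. The third to the ninth held 24, 19, 24, 26, 17, 24 and 22, and the most proximal held 10. The first region, 25 bp wide (53167645 to 53167669), lay 167.6 kb inside the distal bound. The share proximal of the midpoint was 56.6% (99 of 175, 48.9 to 64.0%), an interval that included an even split. Width showed no order along the array, with a rank correlation with position of -0.05 over 175 regions. On the distal side of the midpoint the median width was 587.5 bp and the median spacing 6.73 kb, and on the proximal side 600 bp and 6.41 kb.

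No gap inside Tcra/Tcrd V exceeded 50 kb. The 3 longest were toward the ends, at 44.8 kb (54521195 to 54566019), 41.2 kb (53200495 to 53241669) and 28.5 kb (53167745 to 53196244). The first of these lay between regions of 250 bp on the distal and 500 bp on the proximal side, the second between 650 and 775 bp, and the third between 25 and 325 bp. The last region of the array, 54596420 to 54596944, was 525 bp wide. The densest 50 kb held 11 regions, reached at 2 starting regions, the first giving 53751895 to 53794794 with 3 regions of full width and 3 of at most 75 bp.

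A large portion of the Tcra/Tcrd V array repeated itself. The distance that recurred most often between any 2 regions over 20 kb apart was 311.05 kb, with 25 pairs within 100 bp of it. The next most frequent distance, 128.7 kb, had 14 pairs, and steps of 200 bp between 20 and 1000 kb held a median of 3. In Igh V the most frequent distance had 8 pairs and another distance had 8 as well, and in Igk V no distance occurred more than once. An earlier look at these data had shown the recurrence in Tcra/Tcrd V, so it is given here as a description.

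With pairs taken one to one and up to 500 bp from 311.05 kb, the repeat could be followed region by region in the longest run of such pairs. All 30 regions from 53430120 to 53628069 had a partner between 53741245 and 53939244. Both stretches were of nearly the same length, 197.95 and 198.0 kb. The 30 distances ran from 310.75 to 311.19 kb. Of the 30 pairs, 17 had exactly the same width and 25 differed by at most 25 bp, the resolution of the file. The largest difference was 150 bp, for a region of 300 bp (53603495 to 53603794) with a partner of 150 bp. The rank correlation of widths over these 30 pairs was 0.99, and the stretches were found by position alone, not by width. The covered length was 16825 bp in the distal and 16625 bp in the proximal copy.

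Even small features of the arrangement recurred. In 4 pairs both regions were at most 75 bp wide, for example regions of 25 bp at 53592545 to 53592569 and 53903695 to 53903719, each next to one of 850 bp. Regions without a partner were 3, all in the proximal copy, with widths of 25 bp (53793770 to 53793794 and 53893620 to 53893644) and 125 bp (53914845 to 53914969). The 2 copies together held 63 regions, or 36.0% of the array.

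**Figure D4:**
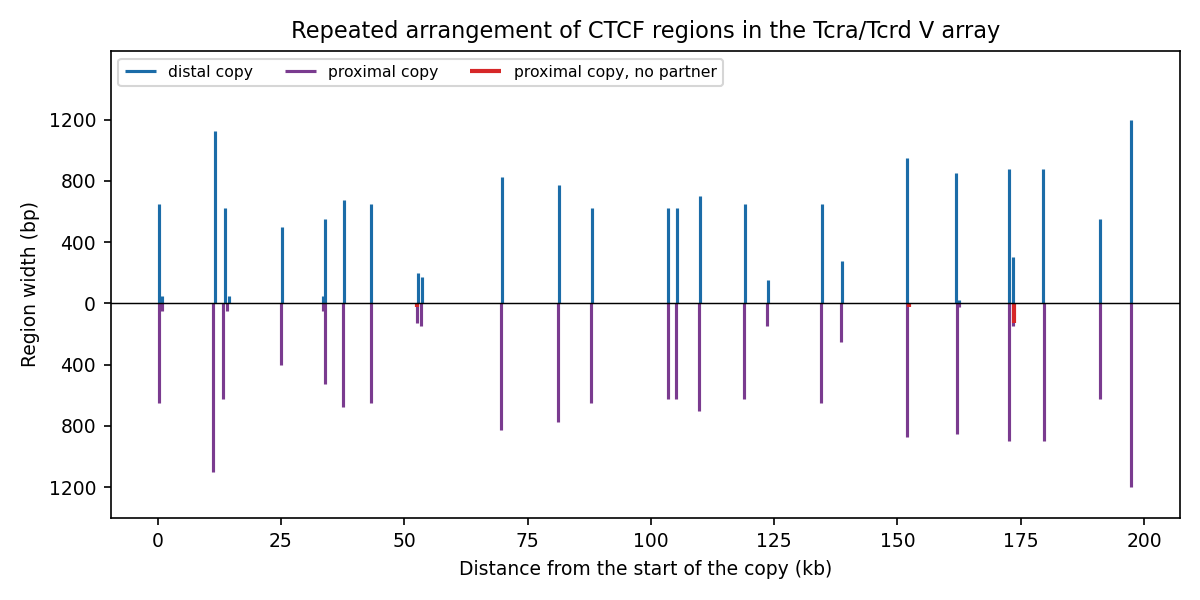
Width in bp of each CTCF region against its distance in kb from the start of its copy, upward for the distal copy (53430120 to 53628069) and downward for the proximal one (53741245 to 53939244). All 30 lines of the distal copy have a partner below at nearly the same place, and the 3 red lines are regions of the proximal copy without one.

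The recurrence was also measured without a fixed distance. A region was counted when it belonged to a run of 3 neighbouring regions, spanning at least 2000 bp, whose 2 spacings came back in another run within 1000 kb, each within 100 bp. This held for 1.51% of all regions and for 96 of 175 in Tcra/Tcrd V (54.9%, 47.2 to 62.4%). It held for 0 of 140 in Igh V and 0 of 12 in Igk V. Regions are counted in runs of 3 together with their counterparts, so they are not separate counts as the interval for Tcra/Tcrd V assumes. The Tcra/Tcrd V array has 0.339% of all regions and 12.3% of those in such runs. Of its 35 pairs of runs, 19 were 310.8 to 311.3 kb apart, and in 17 of these each region and its counterpart differed by at most 100 bp in width. Over all 35 pairs of runs, widths were this close in 25, so recurring spacings did not always come with like widths. The measure finds more in dense stretches, and Tcra/Tcrd V was the densest array.

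Some runs occurred at 3 places, with like widths in some of them and unlike widths in others. A region of 1125 bp (53441095 to 53442219) was followed by regions of 625 and 50 bp, with spacings of 2150 and 737.5 bp. The same order returned from 53751895 with widths of 1100, 625 and 50 bp and spacings of 2112.5 and 737.5 bp. It returned again from 54136095 with widths of 1125, 625 and 50 bp and spacings of 2100 and 737.5 bp. The second and the third place were 384.2 kb apart. A run that began with regions of 600 and 200 bp from 53649770 likewise came back from 53953995 with 600 and 225 bp and from 54346420 with 625 and 200 bp. Its first spacing was 2975, 2962.5 and 2937.5 bp at the 3 places. The widest region of the array, 1275 bp (54329170 to 54330444), and the 2 of 1200 bp (53626870 to 53628069 and 53938045 to 53939244) were the other regions above 1000 bp. The neighbour on the distal side was 550 bp wide at the first place and 625 bp at the others, with spacings of 6325 bp (the most distal place), 6312.5 bp and 6375 bp (the region of 1275 bp). On the proximal side the spacings differed, at 12300, 5337.5 and 6287.5 bp in the same order. The region of 1275 bp was in no recurring run.

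The names of the Trav segments also repeat in the gene order. Of 130 Trav segments in the gene table, 40 carry the letter d after the family number and 34 carry n, the remaining 56 having neither. In the gene order the d segments form 1 unbroken block, from Trav7d-2 to Trav15d-3, and the n block, from Trav7n-4 to Trav15n-3, follows at once. All 34 n names have a d counterpart in the same order, and 32 have one without a letter as well. Whether the paired stretches of CTCF regions are those that hold the d and n segments was not tested, since the table is of another build. How Bowtie was set to place reads that match more than 1 copy is not given in the sources used here, and its part in the likeness of the copies was not tested.

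In Igk V the few regions lay mostly distal of the midpoint. The first 6, in the most distal of 10 equal parts of 310 kb, were 350 to 625 bp wide. The first, of 525 bp, ran from 67581521 to 67582045 and the next, of 350 bp, from 67596471 to 67596820. The widest of the array, of 625 bp, came next, from 67648821 to 67649445. Regions of 400 bp (67704146 to 67704545) and 525 bp (67762396 to 67762920) came after it. The group ended with another of 400 bp, from 67807946 to 67808345. After the first 2, which were 14.4 kb apart, the gaps between neighbours in this group were 45.0 to 57.85 kb. This distal part alone thus held as many regions as the rest of the array.

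The next 4 regions of Igk V were scattered. A region of 500 bp (67983546 to 67984045) was followed after 335.85 kb by one of 75 bp (68319896 to 68319970) and after a further 236.3 kb by one of 25 bp (68556271 to 68556295). The next region (68618296 to 68618870), of full width, was the last before an interval of 1478.2 kb without a listed region, which took up 47.7% of the array. Proximal of that interval the array had 2 regions, of 200 bp (70097071 to 70097270) and 50 bp (70097321 to 70097370), only 50 bp apart. From there to the proximal bound, another 502.6 kb had none.

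Of the 12 regions of Igk V, 10 were distal of the midpoint and 2 proximal (16.7%, 2.09 to 48.4%), and the latter lay 50 bp apart. Gaps over 50 kb between regions made up 79.1% of the array, compared with 5.41% of Igh V and none of Tcra/Tcrd V. Stretches from a bound to its nearest region are not counted in these shares. They measured 81.5 kb at the distal and 502.6 kb at the proximal end of Igk V, and 167.6 kb at the distal end of Tcra/Tcrd V. In the gene order from the distal end, all 10 Igkv2, all 8 Igkv14 and all 6 Igkv9 segments come before the midpoint of the order. All 13 Igkv8, all 13 Igkv3 and all 9 Igkv6 segments come after it. The largest families, Igkv4 and Igkv13, lie on both sides, with 14 of 33 and 11 of 19 segments before the midpoint. Igkv12 and Igkv1 also lie on both sides, with 2 of 12 and 12 of 13 before it. How many V segments lie in the interval of 1478.2 kb was not examined. A position that is not listed does not show that CTCF was absent, since the threshold of the authors' caller and the depth are unknown.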

How the data were processed

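CTCF binding was measured by ChIP-seq in 1 library, and the members and lists used here were chosen with earlier results of these data known. Per the submitters' processing notes, reads were aligned with Bowtie to mm9. The sources used here do not name the version, the peak caller, its threshold or how the input was used. The deposited track holds no measured value, only the positions of 912174 windows, all 25 bp long, that the authors placed in peaks. Starts were read as counted from 0 and are printed counted from 1.

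Windows that touched (gap of 0 bp) formed 1 region, and a spacing is the distance between neighbouring midpoints. Intervals are exact Poisson (per Mb) or Clopper-Pearson (shares) at 95%. They treat each region as a separate count, and variation between mice was not measured. No test was run, and comparisons are between stretches of 1 library. Named regions are all of Igk V, and in the other arrays those at the ends and beside the 3 longest gaps, the 3 widest, the densest 50 kb and the regions paired at the recurring distance. Regions wider than full width in Igh V, runs at 3 places and the unpaired regions were added after their values were seen. The joining and recurrence steps were tested on simulated data. The CTCF motif search was not run, since no mm9 sequence was used here. Alternatives joined regions at most 500 or 1000 bp apart, left out those of at most 75 bp, kept those of at least 525 bp, moved the bounds by 50 kb or changed tolerances. The software was SciPy 1.17.1, pandas 2.3.3 and NumPy 2.4.6 under Python 3.11.15, with plots by matplotlib 3.10.9.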

Additional observations from a re-analysis of the deposited data

How the results depend on the processing

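No paired analysis was possible because the result comes from 1 library with no replicate. Of 99 values under alternative settings, 81 stayed within 1.5 times the main count, within 25 bp of the main gap or within the 95% interval of the main value. Most of the other 18 came from keeping regions of at least 525 bp, which lowers the number by construction. The number was then 110 in Tcra/Tcrd V, 85 in Igh V and 4 in Igk V, the median width 650, 625 and 550 bp, and the longest gap 81.4, 173.75 and 855 kb. The median spacing was 10.6 kb in Tcra/Tcrd V and 27.1 kb in Igh V, and 0% of the Igk V regions were proximal of the midpoint. In Igk V no region of this width lay proximal of 68618870. The main gap of 1478.2 kb there thus became part of the empty proximal end and was no longer counted between regions. In Tcra/Tcrd V the median spacing was 9.53 kb after joining at 1000 bp and 9.21 kb without regions of at most 75 bp, and in Igh V the longest gap was 84.9 kb without them. Bounds moved outward by 50 kb made the longest gap of Tcra/Tcrd V 182.75 kb, because the wider bound takes in regions beyond the empty distal end. With a tolerance of 200 bp the most frequent distance of Igk V had 2 pairs, and 6 regions of Igh V (4.29%) lay in recurring runs, against 4.18% of all regions. In Tcra/Tcrd V the recurring distance was 311 to 311.05 kb in all 5 settings, with 17 to 34 pairs. For recurring distances only the number of pairs entered the 99 values. The distance itself was not stable in the other arrays, and ran from 100.2 to 863.95 kb in Igh V and from 334.7 to 2334.5 kb in Igk V. The paired stretch held 30 pairs with tolerances of 300 and 1000 bp and 26 of 26 distal regions without short ones. The settings for runs and for the paired stretch were chosen after seeing the data.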
